A study of Mus musculus with 12 samples.

Results

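The 38 genes described here encode enzymes that load amino acids onto transfer RNAs, enzymes that make serine, one-carbon units, asparagine and proline, and proteins of the cell's response to a shortage of amino acids. They were picked by gene symbol and role, with earlier results of these data known. These make up 38 of the 12885 gene symbols in the expression table. They fall into 4 role groups: 20 cytosolic aminoacyl-tRNA synthetases, 8 serine and one-carbon enzymes, 3 asparagine and proline enzymes (Asns, Aldh18a1 and Pycr1) and 7 amino acid stress genes (Atf4, Atf5, Ddit3, Trib3, Chac1, Sesn2 and Cth). All 38 symbols were present, and 38 of 38 passed the filter for testing, which asked for at least 1 RPKM (reads scaled to gene length and to the read total of the library) in at least 2 libraries. Chac1 reached 1 RPKM in none but the stimulated mutant libraries, and Cth in those and 1 other library, so that these genes could enter the test only because of the groups in which they were high. Asns and Pycr1 were below 1 RPKM in every resting library and entered through the stimulated libraries of both genotypes. Their rises from rest are thus selected in the same way.

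The cells were CD8 T lymphocytes from the spleens of C57Bl/6 mice aged 6 weeks, sorted as CD62L-high and CD44-low or negative, the surface pattern of naive cells. One genotype was wild type (WT) and the other was homozygous Ikaros-Zn4-/- (called Zn4), a mutation of the lymphoid zinc finger factor Ikaros that the labels place in the animals with no Cre or tissue-restricted allele named. Cells of both genotypes were lysed directly (0 h) or after 12 h or 24 h on dishes coated with antibodies to CD3 and CD28, the T cell receptor complex and its costimulator, which gives 6 groups of 2 libraries. None of the 12 libraries analysed here came from cells cultured without antibodies, so time in culture and stimulation cannot be told apart, and the labels do not say whether the libraries of a group came from separate animals.

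Aminoacyl-tRNA synthetases join each amino acid to its transfer RNA and so supply the ribosome. A T cell that leaves quiescence enlarges before it divides, and serine and folate-bound one-carbon units feed its nucleotide synthesis. When uncharged transfer RNA accumulates, the kinase GCN2 phosphorylates the translation factor eIF2, most translation slows, and the transcription factor ATF4 is translated from its own messenger RNA and switches on genes for amino acid synthesis, uptake and transfer RNA charging, as well as feedback factors.

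ATF4 and its C/EBP partners are known to bind a composite element that contains TGATGNAA. RefSeq promoters (build GRCm38.p6) were matched for 30 of the 38 genes, and the 250 bases before each start were searched on both strands. The element was found in 6 of these 30 genes (20%), against 186 of 8157 genes of the expression table with a matched promoter (2.3%) and 1134 of all 32851 promoters (3.5%). The 38 genes were picked in part for their role in the ATF4 response, so this share is not independent of that choice. The 6 stretches of 60 bases are shown because they hold the only such matches among these genes. Each runs 5′ to 3′ on the strand of its gene, and capitals mark the match, which for Aars, Gars, Tars and Chac1 is read on the opposite strand.
Asns, chr6:7693210-7693269, minus strand: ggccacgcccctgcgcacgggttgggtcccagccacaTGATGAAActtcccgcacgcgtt
Pycr1, chr11:120643818-120643877, minus strand: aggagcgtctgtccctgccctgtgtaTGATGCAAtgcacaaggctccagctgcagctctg
Chac1, chr2:119351023-119351082, plus strand: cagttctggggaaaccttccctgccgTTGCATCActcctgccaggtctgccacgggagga
Aars, chr8:111033704-111033763, plus strand: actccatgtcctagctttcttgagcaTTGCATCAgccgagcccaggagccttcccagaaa
Tars, chr15:11399659-11399718, minus strand: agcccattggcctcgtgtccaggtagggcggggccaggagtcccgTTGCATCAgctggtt
Gars, chr6:55037941-55038000, plus strand: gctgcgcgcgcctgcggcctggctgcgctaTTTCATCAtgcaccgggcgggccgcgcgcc
The match begins 15 bases before the start of Tars, 23 before Asns, 30 before Gars, 103 before Pycr1, 112 before Aars and 193 before Chac1. The E-box CACGTG, the element bound by MYC with MAX, was found in 4 of the 30 genes (13.3%; Aars, Farsb, Iars and Aldh18a1), against 849 of 8157 genes (10.4%), and Aars held both elements without overlap. A match is a string of letters in this window and not a measured binding site.

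Library totals ran from 24263907 to 33389808 reads. The genes of the table took 73.8% to 76.3% of them in resting cells and 82.5% to 86.1% in stimulated cells. The animals are labelled female, but 3 of the 4 libraries at 12 h held Y-linked transcripts. The summed level of 4 such genes was 38.9 RPKM in the first WT library at 12 h, 43.4 and 21.0 RPKM in the Zn4 libraries at 12 h, and at most 0.0209 RPKM in all others. For the 38 genes, calls that involve 12 h are therefore also given with both 12 h libraries numbered 1 left out, where that ends them. These are the 2 libraries with the highest Y-linked sums. Without them 1 library per genotype remains at 12 h, and that of Zn4 still holds 21.0 RPKM of Y-linked transcripts. Genotype and Y-linked level at 12 h cannot be told apart in that check. Calls of other genes named below were not followed in this way. The 4 CD8 T cell markers Cd3e, Cd3d, Cd8a and Cd8b1 summed to 589 to 978 RPKM. Of the markers of other cells, 2 of 4 natural killer genes were analysed (133 to 703 RPKM), 1 of 5 B cell genes (0.298 to 6.62 RPKM), 2 of 5 myeloid genes (1.4 to 6.62 RPKM), 1 of 3 CD4 T cell genes (0.0149 to 2.09 RPKM) and 0 of 5 erythroid genes. Such sums do not show which cells of a library held the transcripts. Ikzf1, the gene for Ikaros, was at 90.9 to 139 RPKM in every library, and a value per gene does not show which genotype a library holds. The 2 libraries of Zn4 cells at 24 h differed most over the 38 genes, by up to 1.07 on the log2 scale (Trib3), against at most 0.73 in any other group.

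The enzyme genes rose together when cells of either genotype were stimulated. From 0 h to 12 h, 32 of the 38 genes rose in WT cells and 1 fell, with a median log2 change of 1.76 against 0.20 over all 12726 genes tested. In Zn4 cells 34 rose and 1 fell, with a median of 1.89 against 0.19. By 24 h, 34 had risen and 1 had fallen in WT cells, and 36 and 1 in Zn4 cells. These counts stand against large backgrounds: 70.2% of all genes changed in WT cells at 12 h (43.1% rose and 27.0% fell) and 73.0% in Zn4 cells (43.5% rose and 29.6% fell). At 24 h 73.9% changed in WT cells (48.3% rose and 25.6% fell) and 74.7% in Zn4 cells (48.7% rose and 26.0% fell). All changes here are differences of log2(RPKM + 1) with the standard error of a limma model fitted to all genes and 12 libraries. They were called at a Benjamini-Hochberg adjusted p below 0.05. Under median-ratio scaling the calls over all genes at 12 h became even in direction (4351 rose and 4537 fell in WT cells in place of 5488 and 3440, and 4523 and 4718 in Zn4 cells in place of 5533 and 3763), while 31 and 33 of the 38 genes still rose. At 24 h that scaling gave 4702 and 4641 genes in place of 6153 and 3256 in WT cells and 4754 and 4696 in place of 6194 and 3315 in Zn4 cells, with 32 and 36 of the 38 rising and 2 falling in each. RPKM values are shares of a library, so a gain in RNA per cell is not measured by them. In such mixed samples, fewer cells with a transcript and less transcript per cell cannot be told apart.

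All 20 cytosolic synthetase genes rose by 12 h in both genotypes, with log2 changes from 0.84 to 2.81 in WT cells and from 0.37 to 2.97 in Zn4 cells. Their summed level went from 417 and 418 RPKM in the resting WT libraries to 1645 and 1578 RPKM at 12 h and 1400 and 1363 RPKM at 24 h. In Zn4 cells the sum went from 451 and 437 RPKM to 1690 and 1659 RPKM, and then to 1510 and 1549 RPKM. The sum was thus lower at 24 h than at 12 h in each genotype, with no overlap between libraries, and remained at more than the resting level in every stimulated library.

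The largest rise at 12 h was that of Farsb, the beta chain of the phenylalanine enzyme. Farsb stood at 9.20 and 8.69 RPKM in resting WT libraries, 69.8 and 67.8 RPKM at 12 h, and 60.6 and 59.7 RPKM at 24 h. In Zn4 cells it stood at 7.36 and 8.72, then 70.4 and 69.2, then 54.8 and 57.0 RPKM. The genotypes overlapped at rest and at 12 h, with a rise of 7.69 times in WT cells and 8.69 times in Zn4 cells (log2 change 2.81 ± 0.08, limma adjusted p = 1.87e-08, and 2.97 ± 0.08, limma adjusted p = 1.18e-08). Farsa, which encodes the alpha chain of the same enzyme, changed by 1.09 ± 0.11 in WT cells and 1.29 ± 0.11 in Zn4 cells, the smallest rises after that of Qars. By 24 h the largest rise was that of Mars, the methionine enzyme (2.64 ± 0.07 in WT and 2.70 ± 0.07 in Zn4), from 10.6 and 11.4 RPKM to 75.0 and 72.4 RPKM in WT libraries and from 12.8 and 13.2 to 93.7 and 86.2 RPKM in Zn4 libraries.

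Qars, the glutamine enzyme, had the smallest rise and was the synthetase whose response differed between genotypes. WT libraries held 19.0 and 19.5 RPKM at rest, 34.7 and 35.9 RPKM at 12 h, and 33.9 and 34.0 RPKM at 24 h. Zn4 libraries held 26.4 and 25.6 RPKM at rest, 33.2 and 34.5 RPKM at 12 h, and 27.8 and 31.2 RPKM at 24 h. Resting Zn4 cells were thus above both resting WT libraries and below every stimulated WT library. The rise to 12 h was 0.84 ± 0.08 in WT cells and 0.37 ± 0.08 in Zn4 cells, a difference of -0.47 ± 0.11 (limma adjusted p = 0.0386), and to 24 h the difference was -0.61 ± 0.11 (limma adjusted p = 0.0105). The rise in Zn4 cells to 12 h depended on the scaling, with 0.09 (limma adjusted p = 0.301) under median-ratio scaling and 0.003 (limma adjusted p = 0.973) under quantile normalization. At 24 h it was 0.17 ± 0.08 (limma adjusted p = 0.063) and became -0.21 (limma adjusted p = 0.0265) under median-ratio scaling and -0.25 (limma adjusted p = 0.00977) under quantile normalization. These scalings set the median of all genes close to 0 (-0.02 to 0.04 in the comparisons with rest), while the difference between genotypes stayed at -0.45 and -0.50 at 12 h. The 12 h difference lost its call without any 1 of the 8 libraries concerned (limma adjusted p from 0.0581 to 0.158) and with both 12 h libraries numbered 1 left out (-0.47, 0.279). The 24 h difference lost its call when either WT library at 24 h was left out (0.0586 and 0.0606).

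**Figure D1:**
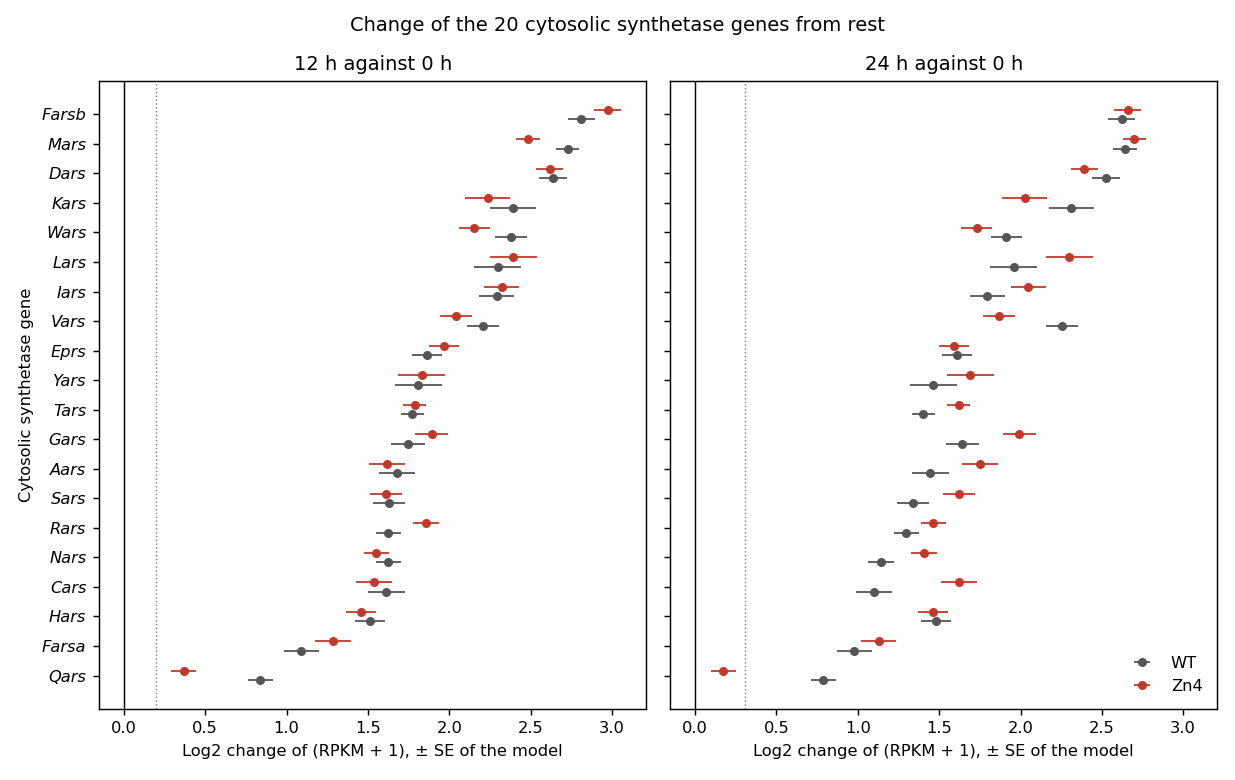
Change of each of the 20 cytosolic synthetase genes from rest, as the log2 difference of (RPKM + 1) on the horizontal axis, at 12 h (left) and 24 h (right), in WT (grey) and Zn4 (red). Bars are the standard error of the model, and the dotted line is the median of all genes in WT cells (0.20 at 12 h and 0.31 at 24 h). Farsb and Mars lie at the high end and Qars at the low end, where the genotypes are apart.

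Between 12 h and 24 h, the group mean of 19 of the 20 synthetases was lower at the later time in WT cells and that of 14 of 20 in Zn4 cells. In WT cells 6 of them fell and 0 rose by the test (Cars, Iars, Nars, Wars, Tars and Rars), while 24.0% of all genes changed (17.0% rose and 6.94% fell). The largest fall was that of Cars, the cysteine enzyme, by 0.51 ± 0.11 (limma adjusted p = 0.00951), from 27.5 and 27.7 RPKM to 20 and 18.2 RPKM. Nars, the asparagine enzyme, fell by 0.48 ± 0.08 (limma adjusted p = 0.00221), from 167 and 162 RPKM to 121 and 114 RPKM, and kept its call in 14 of 14 alternatives. In Zn4 cells 4 fell (Wars, Rars, Eprs and Farsb) and Mars rose by 0.22 ± 0.07 (limma adjusted p = 0.0465), against 33.6% of all genes (22.6% rose and 11.0% fell). The rise of Mars was not called under median-ratio scaling (0.105, limma adjusted p = 0.324) or quantile normalization (0.232, limma adjusted p = 0.0619). It kept its call in 5 of 14 alternatives. Leaving out the second WT library at 24 h ended the calls of Cars, Iars, Tars, Wars and Rars (limma adjusted p from 0.0699 to 0.104). Leaving out the first WT library at 12 h ended those of Cars, Iars, Wars and Rars (0.0521 to 0.131), the first at 24 h those of Iars (0.054) and Rars (0.0868), and the second at 12 h that of Cars (0.0513). In Zn4 cells the call of Mars was lost when the first 12 h library (0.157), the second 12 h library (0.161) or the first 24 h library (0.211) was left out, and that of Farsb with the same libraries (0.0963, 0.0663 and 0.079). Eprs lost its call with the first library at 12 h (0.0927) or 24 h (0.0712) left out, and Wars with the second at 12 h (0.0577). With both 12 h libraries numbered 1 left out, Nars was the only synthetase of these 6 in WT cells still called, and in Zn4 cells the calls of Eprs, Farsb, Mars, Rars and Wars were lost (limma adjusted p from 0.0515 to 0.22).

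The 8 serine and one-carbon genes all rose in both genotypes by 12 h, from 1.42 to 3.56 in WT cells and from 1.39 to 3.50 in Zn4 cells on the log2 scale. Their summed level was 72.2 and 78.9 RPKM in resting WT libraries, 574 and 555 RPKM at 12 h and 604 and 600 RPKM at 24 h. In Zn4 libraries it was 82.4 and 86.2 RPKM, then 571 and 579 RPKM, then 529 and 603 RPKM. Each stimulated library was thus above each resting library, and the Zn4 libraries at 24 h overlapped those at 12 h.

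Shmt1, the cytosolic serine hydroxymethyltransferase, which moves a carbon from serine to folate, had the largest rise at 12 h. It went from 3.33 and 4.05 RPKM to 58.2 and 50.3 RPKM in WT libraries at 12 h and stood at 56.0 and 58.6 RPKM at 24 h. In Zn4 libraries it went from 3.11 and 4.09 RPKM to 49.2 and 52.0 RPKM and then 33.2 and 48.0 RPKM, so that both Zn4 libraries were below both WT libraries at 24 h (-0.51 ± 0.17, limma adjusted p = 0.0684, not called). Mthfd1, the cytosolic folate enzyme, rose nearly as far (3.45 ± 0.13 in WT and 3.36 ± 0.13 in Zn4). Shmt2, the mitochondrial counterpart of Shmt1, was the most abundant of the 8 genes per length, with 32.2 to 40.4 RPKM at rest and 197 to 258 RPKM after stimulation.

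The 3 enzymes that make serine from a glycolytic intermediate, Phgdh, Psat1 and Psph, were called as rising further between 12 h and 24 h in both genotypes. In Zn4 cells this call was lost for Phgdh under median-ratio scaling (0.305, limma adjusted p = 0.097) and quantile normalization (0.31, 0.0802). It was also lost for Psph (0.29, limma adjusted p = 0.0613, and 0.21, 0.16). In WT cells Psph lost it under quantile normalization (0.30, limma adjusted p = 0.0724). Psat1, the aminotransferase of the route, went from 4.04 and 4.19 RPKM to 37.7 and 38.5 RPKM and then 59.9 and 60.6 RPKM in WT libraries. The Zn4 libraries gave 4.68 and 4.85, 38.4 and 38.9, and 60.5 and 63.6 RPKM. The levels of both genotypes lay within 2.99% of each other in the mean at 24 h, and the later rise was 0.65 ± 0.07 in WT cells (limma adjusted p = 0.000176) and 0.67 ± 0.07 in Zn4 cells (limma adjusted p = 0.000102). Both calls were kept in 14 of 14 alternatives. Psph, the phosphatase that ends the route, had the smallest rise at 12 h, from 2.16 and 2.59 RPKM to 7.71 and 8.29 RPKM in WT and from 2.62 and 2.81 RPKM to 8.08 and 9.5 RPKM in Zn4. Phgdh, its entry enzyme, gained 0.67 ± 0.13 in WT cells after 12 h (limma adjusted p = 0.00596; 0.0584 with both 12 h libraries numbered 1 left out) and 0.41 ± 0.13 in Zn4 cells (limma adjusted p = 0.0385; 0.20 and an adjusted p of 0.219 if the second Zn4 library at 24 h was left out, and an adjusted p of 0.225 or 0.0529 if the first or second at 12 h was). The later rise of Psph was 0.43 ± 0.11 in WT cells (limma adjusted p = 0.0189; 0.0535 to 0.125 without any 1 of the 4 libraries compared) and 0.39 ± 0.11 in Zn4 cells (limma adjusted p = 0.0202; 0.157 if the first Zn4 library at 12 h and 0.0969 if the second at 24 h was left out).

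Of this group, the mitochondrial enzymes Mthfd2 and Mthfd1l, which act in sequence on folate-bound carbon, went in opposite directions between genotypes at 24 h. Mthfd2 stood at 6.90 and 7.33, 41.2 and 45.5, and 53.7 and 56.9 RPKM in WT libraries at 0 h, 12 h and 24 h. In Zn4 libraries it stood at 8.96 and 9.87, 47.8 and 50.6, and 88.6 and 80.7 RPKM. Zn4 libraries were above WT libraries at each time without overlap, by 32.4% in the mean at 0 h, 13.5% at 12 h and 53.1% at 24 h. The test called the difference at 0 h (0.36 ± 0.09, limma adjusted p = 0.0479) and at 24 h (0.60 ± 0.09, limma adjusted p = 0.00163). The resting call was lost in 9 of 13 alternatives, among them each of the 4 single libraries left out (limma adjusted p from 0.0740 to 0.222). Mthfd1l stood at 55.0 and 53.2 RPKM in WT libraries at 24 h and at 35.1 and 44.0 RPKM in Zn4 libraries (-0.45 ± 0.11, limma adjusted p = 0.0194). That call was lost when the first (0.127) or second (0.0912) WT library or the first Zn4 library (0.131) at 24 h was left out. Mthfd1l was also the gene of this group with the smallest rise to 24 h in Zn4 cells (1.78 ± 0.11), from 11.5 and 10 RPKM at rest.

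**Figure D2:**
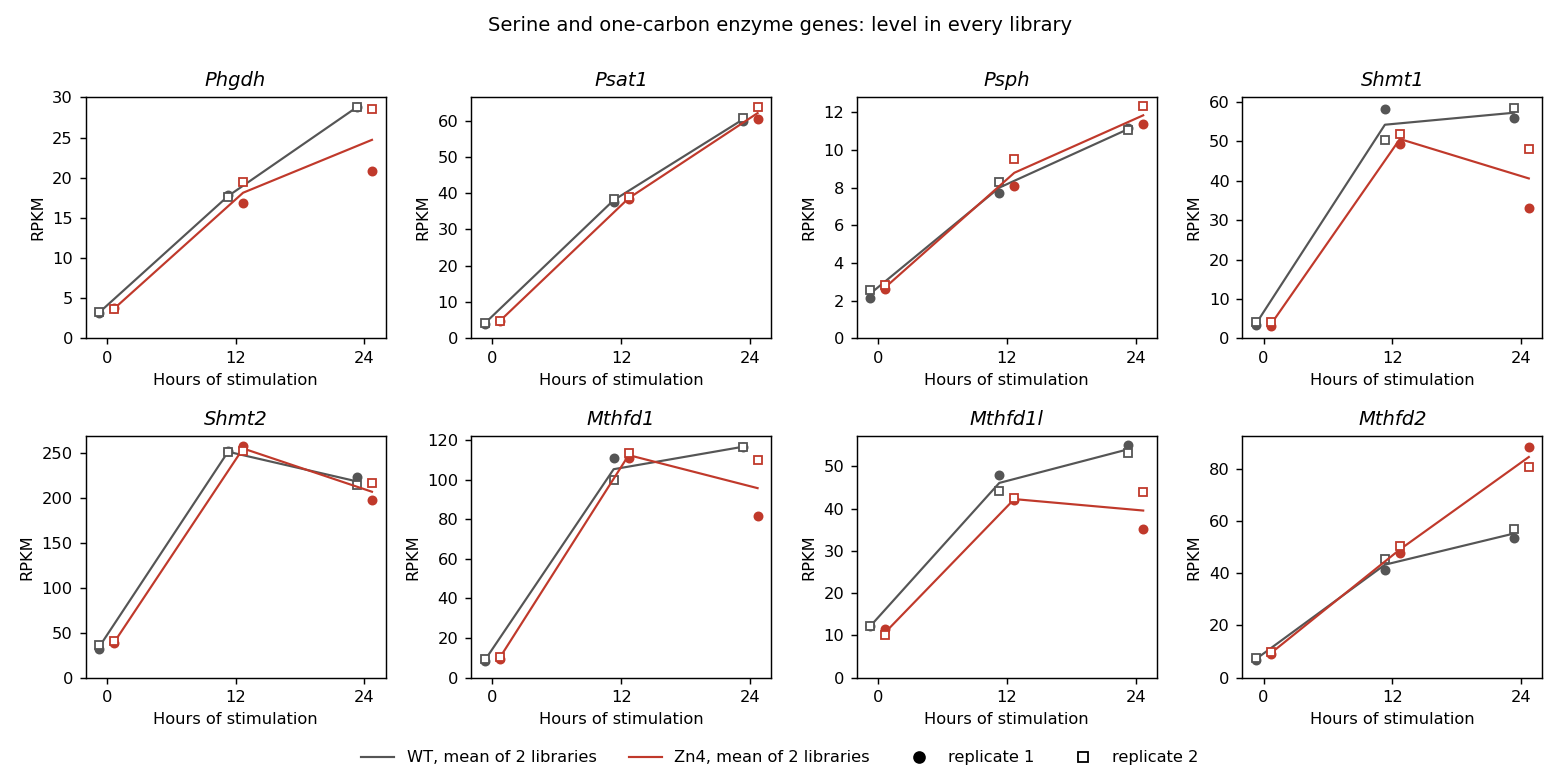
Level of the 8 serine and one-carbon enzyme genes in every library, in RPKM on linear axes that start at 0, against hours of stimulation; lines join the means of 2 libraries in WT (grey) and Zn4 (red). Psat1 follows the same course in both genotypes, Mthfd2 is higher in Zn4 at 24 h, and Zn4 24 h replicate 1 lies below the other 24 h libraries for Shmt1, Mthfd1, Mthfd1l and Phgdh.

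Asns, which makes asparagine from aspartate, was nearly silent at rest and separated the genotypes at every time. WT libraries held 0.0714 and 0.0448 RPKM at rest, 2.53 and 2.43 RPKM at 12 h, and 3.32 and 2.50 RPKM at 24 h. Zn4 libraries held 0.251 and 0.447 RPKM, then 13.2 and 10 RPKM, then 17.8 and 13.3 RPKM. The genotypes did not overlap at any time, and the Zn4 mean was 4.67 times the WT mean at 12 h and 5.35 times at 24 h. At 12 h the difference was 1.84 ± 0.17 (limma adjusted p = 0.000209) and at 24 h 2.08 ± 0.17 (limma adjusted p = 8.29e-05). Both calls were kept in every alternative run (14 and 13). At rest the difference of 0.35 ± 0.17 was not called, and the levels rest on 5 and 3 reads in WT libraries and 18 and 33 reads in Zn4 libraries, a ratio of means of 6.01.

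The rise of Asns was larger in Zn4 cells on the log2(RPKM + 1) scale, by 1.5 ± 0.25 to 12 h (limma adjusted p = 0.00983; 1.34 and 0.115 with both 12 h libraries numbered 1 left out) and 1.73 ± 0.25 to 24 h (limma adjusted p = 0.00442). As a ratio to the resting level it was not: the mean rose 42.7 times in WT cells and 33.2 times in Zn4 cells by 12 h, and 50.1 and 44.5 times by 24 h. A limma-voom fit to the reads gave a difference of -0.21 (limma-voom adjusted p = 0.935) to 12 h and 0.007 (limma-voom adjusted p = 0.997) to 24 h, and a pseudocount of 0.1 gave 0.69 (limma adjusted p = 0.375) and 0.90 (limma adjusted p = 0.193). The call for a larger response of Asns was thus made with 1 RPKM added and not with 0.1 RPKM added or on the reads.

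The 2 proline enzymes did not share the genotype difference. Aldh18a1, which starts proline synthesis from glutamate, stood at 8.27 and 8.67, 43.9 and 43.5, and 42.8 and 40.2 RPKM in WT libraries. Zn4 libraries gave 9.89 and 11.1, 43.1 and 42.7, and 42.9 and 45.3 RPKM, and the difference at 24 h was 0.09 ± 0.08 (limma adjusted p = 0.498). Pycr1, the last enzyme of the route, was low throughout, with 0.0595 to 0.116 RPKM at rest and 1.08 to 1.85 RPKM after stimulation, and differed by 0.13 ± 0.13 at 24 h (limma adjusted p = 0.537).

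The 7 stress genes did not all move one way on stimulation. In WT cells at 12 h, when 43.1% of all genes rose and 27.0% fell, 1 of the 7 rose (Atf4), 1 fell (Ddit3) and 5 were not called, and at 24 h 3 rose (Cth, Sesn2 and Atf5), 1 fell and 3 were not called. In Zn4 cells 3 rose and 1 fell at 12 h, and 6 rose and 1 fell at 24 h. These counts depend on the 1 RPKM added for the rarest transcripts. On the reads limma-voom called 4 of the 7 in WT cells at 12 h, with Chac1 (46 reads against 2, a ratio of 20 with a 95% counting interval of 5.22 to 170) and Cth (51 reads against 2, 22.1 with an interval of 5.82 to 188) added to the rises. At 24 h limma-voom called 5 of the 7 in WT cells, with Chac1 (27 reads against 2, 12.8 with an interval of 3.23 to 112) added. On the log2(RPKM + 1) scale their median log2 change to 24 h was 0.36 in WT cells, close to the 0.31 of all genes, and 1.71 in Zn4 cells, against 0.31.

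Ddit3, which encodes CHOP, a factor of prolonged stress, fell in both genotypes. WT libraries went from 36.9 and 23.4 RPKM to 9.25 and 12.3 RPKM and then 6.26 and 6.49 RPKM. Zn4 libraries went from 29.8 and 24.2 RPKM to 12.3 and 10.8 RPKM and then 17.9 and 10.9 RPKM. At 24 h both Zn4 libraries were above both WT libraries and below every resting library. The fall from rest to 24 h was by 2.05 ± 0.25 in WT cells (limma adjusted p = 5.05e-05) and by 0.89 ± 0.25 in Zn4 cells (limma adjusted p = 0.00957). The fall in Zn4 cells lost its call when the second Zn4 library at 24 h (-0.56, 0.0884) or the first at 0 h (-0.74, 0.061) was left out. The difference between these falls, 1.16 ± 0.36, was not called (limma adjusted p = 0.084).

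Atf4, the transcription factor of the response, was abundant at rest. WT libraries held 158 and 157 RPKM at rest, 211 and 234 RPKM at 12 h, and 189 and 189 RPKM at 24 h. Zn4 libraries held 175 and 187 RPKM, then 270 and 276 RPKM, then 415 and 318 RPKM. The 2 genotypes drew apart with time, with a Zn4 mean 14.9% above WT at rest, 22.7% at 12 h and 94.1% at 24 h. The difference was called at 24 h (0.94 ± 0.11, limma adjusted p = 0.000603) and not at 12 h (0.30 ± 0.11, limma adjusted p = 0.135). The rise to 24 h was 1.00 ± 0.11 in Zn4 cells (limma adjusted p = 2.94e-05) and 0.26 ± 0.11 in WT cells (limma adjusted p = 0.0638). The difference of these rises, 0.74 ± 0.16, was called (limma adjusted p = 0.0249). That call was lost when the first resting WT library (0.052), the first or second WT library at 24 h (0.0945 and 0.0952) or the first or second resting Zn4 library (0.0724 and 0.0529) was left out. The rise of Atf4 in WT cells to 12 h (0.49 ± 0.11, limma adjusted p = 0.00355) was not called under median-ratio scaling (0.18, 0.176) or quantile normalization (0.11, 0.444).

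Cth, the enzyme that releases cysteine in the transsulfuration route, gave the largest genotype difference of the 38 genes on the log2(RPKM + 1) scale at 12 h and 24 h. As a ratio of means at 24 h it came after Chac1 (14.7 against 16.9 times). WT libraries held 0 and 0.0361 RPKM at rest, 0.346 and 0.424 RPKM at 12 h, and 1.17 and 0.967 RPKM at 24 h. Zn4 libraries held 0 and 0 RPKM at rest (0 reads, where 3 reads would be 0.0397 to 0.0546 RPKM across the 12 libraries), then 3.68 and 5.70 RPKM, then 12.6 and 18.8 RPKM. Every stimulated Zn4 library was above every WT library, and the Zn4 mean was 12.2 times the WT mean at 12 h (2.02 ± 0.20, limma adjusted p = 0.000277) and 14.7 times at 24 h (2.99 ± 0.20, limma adjusted p = 2.24e-05). Against a floor of 3 reads per resting library, the Zn4 level was at least 94-fold higher at 12 h and at least 315-fold higher at 24 h than at rest. In WT cells 126 reads at 24 h against 2 at rest gave a ratio of 60, with a 95% counting interval of 16.3 to 501.

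Cth also responded more in Zn4 cells, by 2.04 ± 0.28 to 12 h (limma adjusted p = 0.00476) and 3.02 ± 0.28 to 24 h (limma adjusted p = 0.000666). On the reads these differences were larger in size and not called (4.77, limma-voom adjusted p = 0.117, and 5.09, limma-voom adjusted p = 0.0732), with 0 to 2 reads in each resting library. Cth was the gene of the 38 with the highest place among all genes at 24 h, 42 of 12726 when ordered from the highest Zn4 excess.

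Trib3, a pseudokinase that restrains ATF4 and CHOP, was at like levels in both genotypes at rest and far apart at 24 h. WT libraries held 2.81 and 1.48 RPKM at rest, 1.67 and 2.96 RPKM at 12 h, and 1.03 and 0.814 RPKM at 24 h. Zn4 libraries held 3.05 and 2.44 RPKM, then 5.81 and 4.5 RPKM, then 13.3 and 5.82 RPKM. At 24 h the Zn4 libraries differed 2.29 times from each other and both lay above all WT libraries, with a mean 10.4 times that of WT (2.37 ± 0.34, limma adjusted p = 0.00152). The change to 24 h was 1.4 ± 0.34 in Zn4 cells (limma adjusted p = 0.00412) and -0.68 ± 0.34 in WT cells (limma adjusted p = 0.0974), a difference of 2.09 ± 0.48 (limma adjusted p = 0.0304). This difference of responses lost its call when the first resting WT library (0.0786), either WT library at 24 h (0.0913 and 0.112) or either resting Zn4 library (0.0604 and 0.0847) was left out. It was also lost when the first Zn4 library at 24 h was left out (1.55, 0.0756).

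Chac1, which degrades glutathione, was close to the counting limit in WT cells. WT libraries held 0.0239 and 0.0250 RPKM at rest, 0.478 and 0.494 RPKM at 12 h, and 0.277 and 0.345 RPKM at 24 h. Zn4 libraries held 0.257 and 0.181 RPKM, then 2.39 and 2.20 RPKM, then 7.47 and 3.03 RPKM. The genotypes did not overlap at any time, and the Zn4 libraries at 24 h differed 2.46 times from each other. The Zn4 mean was 4.72 times the WT mean at 12 h (1.15 ± 0.27, limma adjusted p = 0.0207) and 16.9 times at 24 h (2.16 ± 0.27, limma adjusted p = 0.00065). The 24 h call was kept in 12 of 12 alternatives. The 12 h call was lost when any 1 of the 4 libraries at 12 h was left out, and with both numbered 1 left out (1.10). It was also lost when the Y-linked level was a covariate (limma adjusted p = 0.0868). At rest, 19 reads in Zn4 cells against 2 in WT cells gave a ratio of 8.95 with a 95% counting interval of 2.16 to 79.2.

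The response of Chac1 to 24 h was larger in Zn4 cells by 1.91 ± 0.38 (limma adjusted p = 0.0169). On the reads this was 1.26 (limma-voom adjusted p = 0.626). It was not called when either WT library at 24 h (0.0716 and 0.0637) or the second resting Zn4 library (0.051) was left out.

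Sesn2, which holds back the growth kinase mTORC1 when leucine is short, rose in WT cells between 12 h and 24 h. Its level went from 5.14 and 8.82 RPKM to 4.54 and 5.96 RPKM and then 12.2 and 13.4 RPKM in WT libraries. In Zn4 cells it went from 8.16 and 11.5 RPKM to 13.6 and 14.7 RPKM and then 36.0 and 37.0 RPKM. The Zn4 libraries at 24 h were nearly equal (a ratio of 0.972), and their mean was 2.85 times the WT mean. The difference was 1.29 ± 0.22 at 12 h (limma adjusted p = 0.00449) and 1.44 ± 0.22 at 24 h (limma adjusted p = 0.00197). The 12 h call was lost when both libraries at 12 h numbered 1 were left out together (1.17, 0.133). Atf5, a stress-induced relative of Atf4, stood at 7.70 and 7.55 RPKM in WT and 27.4 and 18 RPKM in Zn4 libraries at 24 h (1.43 ± 0.29, limma adjusted p = 0.00808), from 2.86 and 5.42 RPKM and 4.56 and 8.06 RPKM at rest. The rises of these genes from rest to 24 h in WT cells were lost under median-ratio scaling, Sesn2 with 0.46 (limma adjusted p = 0.0845) in place of 0.83 and Atf5 with 0.45 (limma adjusted p = 0.194) in place of 0.79. The WT rise of Atf5 was also lost when the first resting library (0.43, 0.229) or either library at 24 h (0.0958 and 0.0873) was left out.

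**Figure D3:**
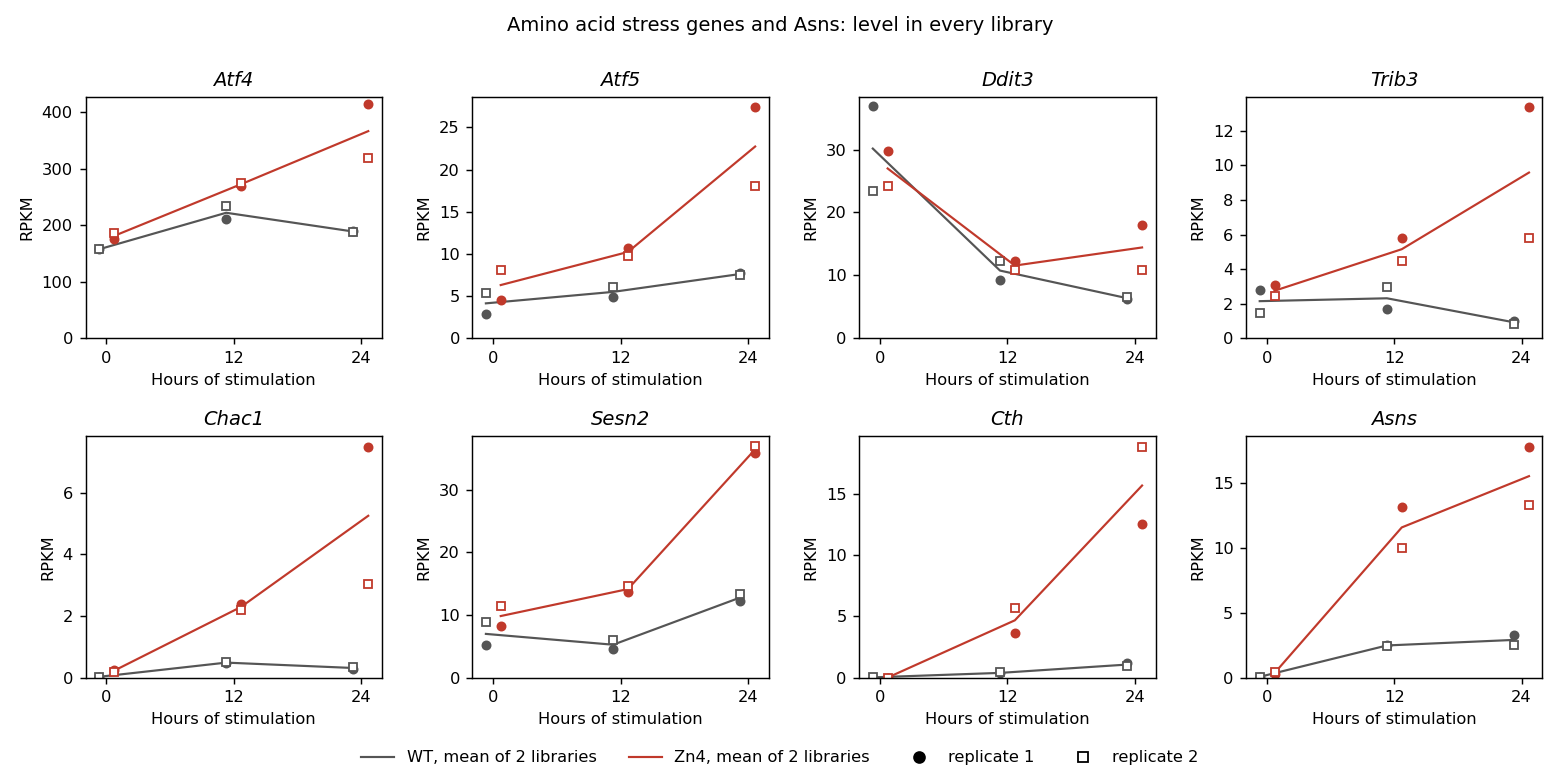
Level of the 7 amino acid stress genes and of Asns in every library, in RPKM on linear axes that start at 0, against hours of stimulation; lines join the means of 2 libraries in WT (grey) and Zn4 (red), filled circles are replicate 1 and open squares replicate 2. All 8 genes are higher in both Zn4 libraries than in both WT libraries at 24 h, and at 24 h Zn4 replicate 1 is the higher library for Atf4, Atf5, Ddit3, Trib3, Chac1 and Asns, the lower one for Cth, and close to replicate 2 for Sesn2.

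Set side by side on the log2(RPKM + 1) scale, Zn4 and WT cells had the fewest called differences at rest and the most at 24 h. That scale makes differences between rare transcripts small. As ratios, Asns (5 and 3 reads in WT, 18 and 33 in Zn4 libraries) and Chac1 (8.95 times) were also apart at rest, on few reads. At 0 h, 2 of the 38 genes were higher in Zn4 cells (Qars and Mthfd2) and 0 lower, against 5.72% of all genes called (3.76% higher and 1.96% lower). The resting difference of Qars was 0.41 ± 0.08 (limma adjusted p = 0.0126) and lost its call when the first resting WT library (0.0508) or either resting Zn4 library (0.0677 and 0.0536) was left out. At 12 h, 4 were higher (Cth, Asns, Sesn2 and Chac1) and 0 lower, against 13.1% of all genes (4.85% higher and 8.28% lower). At 24 h, 15 were higher and 1 lower, against 19.4% of all genes (9.40% higher and 9.96% lower), with a median of 0.20 over the 38 genes and -0.02 over all genes. With the first WT, the second WT or the first Zn4 library at 24 h left out, 10, 8 and 10 of the 38 were higher and 0 lower. With the second Zn4 library left out, 13 were higher and 6 lower.

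At 24 h the stress genes, the synthetases and the serine enzymes differed in how many moved. All 7 stress genes were higher in Zn4 cells, with a median of 1.44 and a range from 0.94 (Atf4) to 2.99 (Cth). Chac1 and Cth entered the test only through groups in which they were high. Their calls are thus not independent of the filter. The synthetases gave 6 higher and 0 lower of 20, with a median of 0.19, the serine and one-carbon genes 1 higher and 1 lower of 8 with a median of -0.15, and the asparagine and proline genes 1 higher of 3. The calls of Cth, Trib3, Chac1, Asns, Sesn2, Atf4, Cars and Mthfd2 were kept in every alternative run. Atf5 and Ddit3 (1.03 ± 0.25, limma adjusted p = 0.0199) lost theirs when the first WT library (0.0513 and 0.107), the second WT library (0.0539 and 0.0918) or the first Zn4 library (0.0792 and 0.16) at 24 h was left out.

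The 6 synthetases higher in Zn4 cells at 24 h were Cars (0.69 ± 0.11, limma adjusted p = 0.00275), Aars (0.475 ± 0.11, 0.0167), Nars (0.42 ± 0.08, 0.00544), Gars (0.39 ± 0.10, 0.0273), Tars (0.33 ± 0.07, 0.0103) and Mars (0.28 ± 0.07, 0.0246). They are the enzymes for cysteine, alanine, asparagine, glycine, threonine and methionine. Cars stood at 20 and 18.2 RPKM in WT and 33.0 and 29.7 RPKM in Zn4 libraries, a mean 64.2% higher. At 12 h limma called 0 of the 20 synthetases, limma-voom also 0, and 0 had an unadjusted p below 0.05, with differences from -0.12 to 0.21. Aars, Gars and Mars lost their 24 h calls when the first WT library (0.0856, 0.123 and 0.112), the second WT library (0.112, 0.15 and 0.176) or the first Zn4 library (0.0906, 0.136 and 0.149) was left out. Aars (0.050) and Gars (0.0609) also lost theirs with the second Zn4 library left out, and Nars (0.0643) and Tars (0.121) with the second WT library left out.

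Of the 6 genes whose upstream stretches are printed above, 5 were higher in Zn4 cells at 24 h (Asns, Chac1, Aars, Gars and Tars) and 1, Pycr1, was not called. Of the 24 genes with a matched promoter and no TGATGNAA, 7 were higher and 1 lower. Over all genes 9.40% were higher and 9.96% lower. Atf4, Atf5, Ddit3, Trib3 and Sesn2, all higher at 24 h, were among these 24. Cth had no matched promoter. The calls of Aars, Gars and Tars were lost with single libraries left out, as given above. Calls were not counted for the other genes of the expression table that hold the element, and a link between element and call was not tested.

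**Figure D4:**
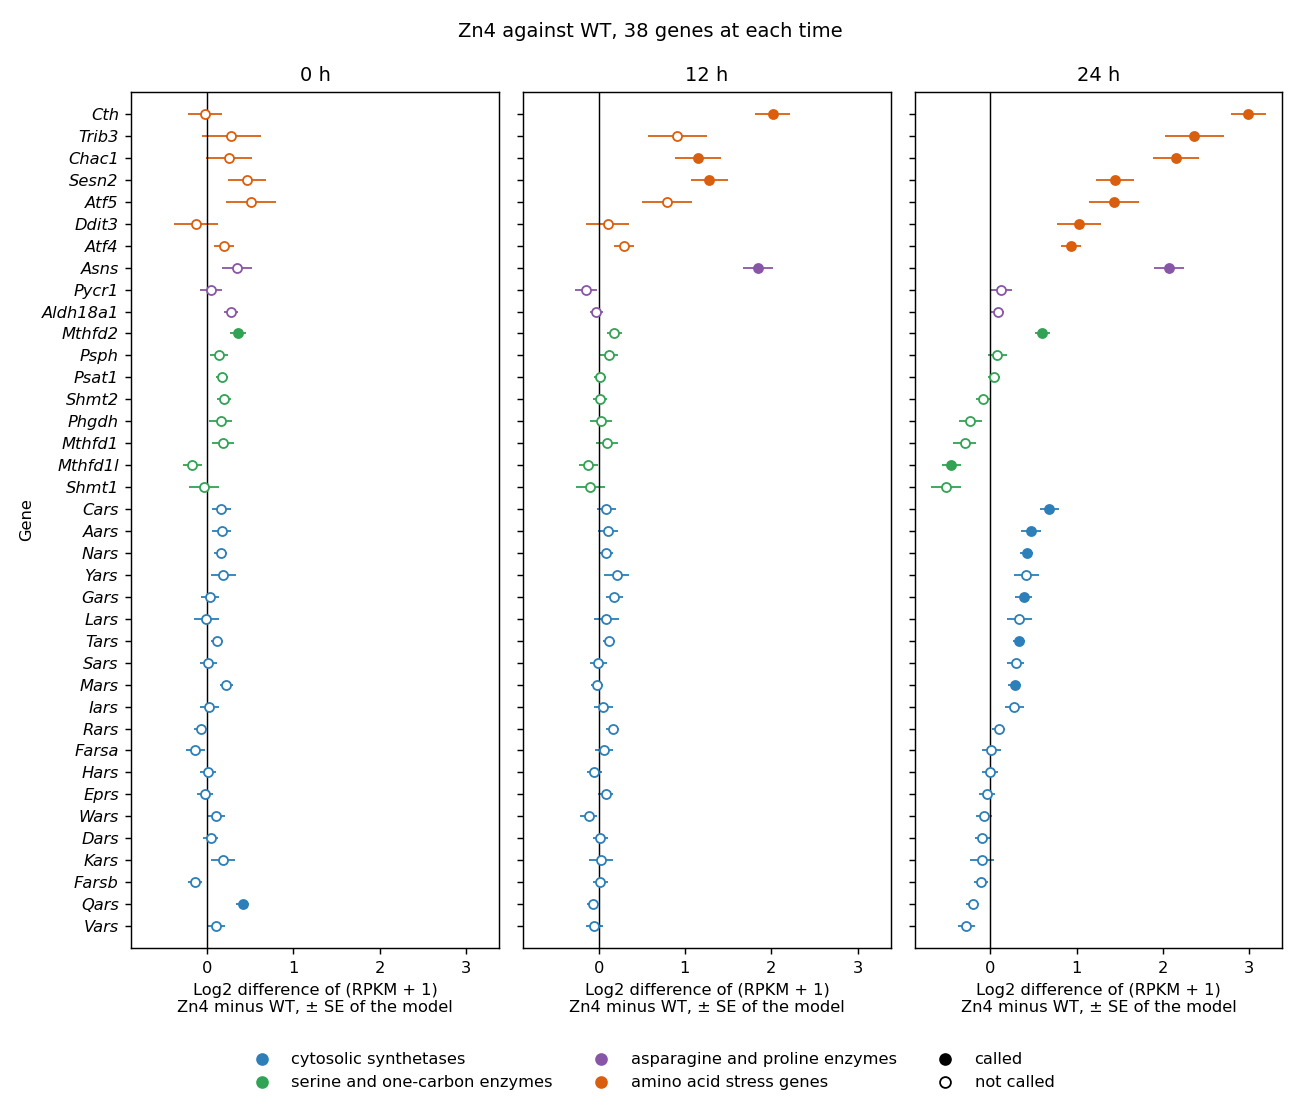
Difference between Zn4 and WT for each of the 38 genes at 0 h, 12 h and 24 h, as the log2 difference of (RPKM + 1) with the standard error of the model; filled points passed an adjusted p of 0.05 (limma) and colours give the role group. Filled points number 2 at 0 h, 4 at 12 h and 16 at 24 h, and all 7 stress genes are filled at 24 h.

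**Figure D5:**
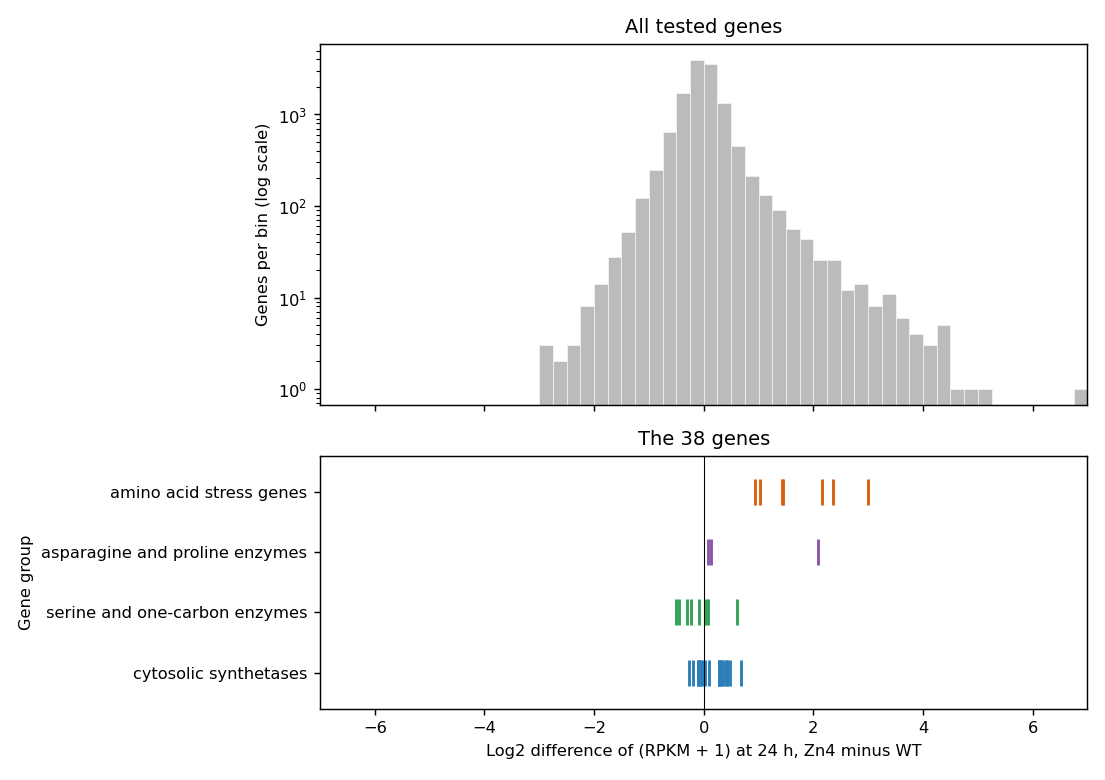
Differences between Zn4 and WT at 24 h over all 12726 tested genes (upper panel, bars count genes on a log axis) and for the 38 genes by role group (lower panel, 1 tick per gene), both on the log2(RPKM + 1) scale. The 7 stress genes and Asns lie at 0.94 or above, on the right shoulder of the distribution, while the synthetases lie between -0.28 and 0.69.

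Other measures moved with the genotype difference. At 12 h the CD8 T cell markers summed to 908 to 978 RPKM in WT libraries and 690 to 704 RPKM in Zn4 libraries, with 2 of the 4 lower by the test, and the natural killer genes to 247 to 332 RPKM and 617 to 703 RPKM. At 24 h the CD8 T cell markers summed to 916 to 947 RPKM in WT libraries and 589 to 697 RPKM in Zn4 libraries, and 3 of these 4 genes were lower by the test. The 2 natural killer genes summed to 230 to 252 RPKM in WT and 370 to 532 RPKM in Zn4 libraries, with 1 of them higher and 1 lower by the test at both times. The B cell gene Cd79b stood at 6.53 to 6.62 RPKM in WT and 1.56 to 1.73 RPKM in Zn4 libraries. Their part in the differences of the 38 genes was not tested. Within Zn4 at 24 h, replicate 1 was the higher library for Trib3, Chac1, Ddit3, Atf5 and Atf4 (1.30 to 2.46 times) and the lower one for Cth, Shmt1, Phgdh, Mthfd1 and Mthfd1l (0.67 to 0.80 times), so that these stress genes and Cth did not vary together between the 2 libraries.

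The difference in response between genotypes was called for 3 of the 38 genes to 12 h (2 larger in Zn4 cells and 1 smaller, with 5.12% of all genes called, 1.54% larger and 3.58% smaller) and for 6 to 24 h (5 larger and 1 smaller, with 8.24% called, 3.88% larger and 4.35% smaller). To 24 h the second Zn4 library at 24 h left out gave 6 larger and 4 smaller, and either WT library at 24 h left out gave 2 larger and 0 smaller. Either resting Zn4 library left out gave 3 larger and 1 smaller. Between 12 h and 24 h limma called 0 of the 38 genes (0.786% of all genes), limma-voom on the reads also called 0, and 10 had an unadjusted p below 0.05. Within each genotype over that interval, 5 rose and 6 fell in WT cells and 10 rose and 5 fell in Zn4 cells. In Zn4 cells the later rises included 5 of the 7 stress genes, led by Cth (1.55 ± 0.20, limma adjusted p = 0.000399) and Sesn2 (1.31 ± 0.22, limma adjusted p = 0.00172), and in WT cells 1 of the 7, Sesn2 (1.15 ± 0.22, limma adjusted p = 0.00492). With both 12 h libraries numbered 1 left out, the WT rise of Sesn2 was 0.98 and not called (limma adjusted p = 0.0812), and over the 38 genes 2 calls were left in WT cells (Nars and Psat1) and 4 in Zn4 cells (Psat1, Mthfd2, Sesn2 and Cth). Of the Zn4 rises, those of Atf4, Atf5 and Chac1 were lost when the first Zn4 library at 12 h (limma adjusted p of 0.105, 0.0743 and 0.122), the second at 12 h (0.0733, 0.0932 and 0.142) or the first at 24 h (0.11, 0.143 and 0.109) was left out. Median-ratio scaling turned the balance, with 4 rising and 10 falling in WT cells and 5 rising and 10 falling in Zn4 cells, and over all genes 1739 rising and 1450 falling in WT cells (in place of 2169 and 883) and 2322 and 2063 in Zn4 cells (in place of 2875 and 1398). A covariate for the Y-linked level, which marks 3 of the 4 libraries at 12 h, left 3 calls in Zn4 cells and 6 in WT cells over this interval.

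Genes near this pathway that are not among the 38 were counted from lists written with earlier results of these data known. Their single calls were not followed through the alternatives, those at 12 h without both libraries numbered 1 included. Their counts are to be read against the shares of all genes called: 9.40% higher and 9.96% lower at 24 h, 4.85% and 8.28% at 12 h, and 3.76% and 1.96% at 0 h. Of 13 amino acid transporters tested, 6 were higher in Zn4 cells at 24 h and 0 lower, led by the alanine and serine carrier Slc1a4 (1.62 ± 0.18, limma adjusted p = 0.000356; 2.39 and 1.99 RPKM in WT and 10.9 and 7.11 RPKM in Zn4), the shared heavy chain Slc3a2 (1.00 ± 0.13, limma adjusted p = 0.000934) and the cationic carrier Slc7a1 (0.93 ± 0.12, limma adjusted p = 0.000969). At 12 h 3 of these 13 were higher (Slc7a1, Slc43a1 and Slc6a9) and at 0 h 4 (Slc43a1, Slc1a4, Slc1a5 and Slc7a5), with 0 lower at either time.

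Of 16 other known ATF4 targets listed, 10 were in the expression table and 9 were tested. At 0 h limma called 0 of these 9, with 2 at an unadjusted p below 0.05. At 12 h 0 were higher and 1 lower, and at 24 h 5 were higher and 1 lower. The highest were Atf3, a stress factor (3.43 ± 0.59, limma adjusted p = 0.00381; 7.21 and 8.06 RPKM in WT and 131 and 64.5 RPKM in Zn4), Eif4ebp1, an inhibitor of translation initiation (1.23 ± 0.11, limma adjusted p = 0.000133), and Slc3a2, which is also a transporter. Sesn3, a relative of Sesn2, was lower in Zn4 cells at 12 h (-0.99 ± 0.12, limma adjusted p = 0.000637) and 24 h (-0.56 ± 0.12, limma adjusted p = 0.00871), in the opposite direction to Sesn2. The eIF2 list held 16 genes: the eIF2 kinases, the eIF2 and eIF2B subunits, their phosphatase, Gcn1l1 and Impact. Of these 16, 2 were higher at 24 h, close to the share of all genes (9.40%). Both encode subunits that direct the phosphatase to eIF2: Ppp1r15a (1.15 ± 0.25, limma adjusted p = 0.0109) and Ppp1r15b (0.28 ± 0.07, limma adjusted p = 0.0273). At 0 h and 12 h limma called 0 of these 16, with 4 and 2 at an unadjusted p below 0.05.

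In the endoplasmic reticulum chaperone list 1 of 12 was higher in Zn4 cells at 0 h (Dnajb9, 0.74 ± 0.16, limma adjusted p = 0.0287). At 12 h 4 of 12 were higher in Zn4 cells (Sdf2l1, Creld2, Hspa5 and Pdia6) and 0 lower, and at 24 h 1 was higher (Edem1, 0.52 ± 0.13, limma adjusted p = 0.0194), near the 9.40% of all genes. Hspa5, the chaperone BiP, stood at 345 and 340 RPKM in WT and 538 and 488 RPKM in Zn4 libraries at 12 h, and at 233 and 224 RPKM and 232 and 246 RPKM at 24 h. Of 17 mitochondrial synthetases, 1 was higher (Ears2) and 2 lower (Vars2 and Nars2) at 24 h, near the 9.40% higher and 9.96% lower of all genes. Of 16 folate and methionine cycle genes, limma called 0 at each of the 3 times, with 2, 1 and 4 at an unadjusted p below 0.05. Of 4 genes of the synthetase complex and of transfer RNA export, Eef1e1, a scaffold of the complex, was higher at 12 h (0.80 ± 0.09, limma adjusted p = 0.000637) and 24 h (0.55 ± 0.09, limma adjusted p = 0.00353).

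In WT cells 43.1% of all genes rose and 27.0% fell by 12 h. At that time 11 of 17 mitochondrial synthetases rose and 1 fell, 13 of 16 folate and methionine cycle genes rose and 1 fell. All 4 genes of the synthetase complex and export list rose. Rars2, the mitochondrial arginine enzyme, rose by 2.88 ± 0.08 (limma adjusted p = 1.72e-08), Gcsh, of the glycine cleavage system, by 3.36 ± 0.13 (limma adjusted p = 4.88e-08), Pfas, of purine synthesis, by 3.35 ± 0.12 (limma adjusted p = 3.03e-08), and Eef1e1 by 2.43 ± 0.09 (limma adjusted p = 3.99e-08). The transporter Slc38a2, known as an ATF4 target, fell by 1.71 ± 0.17 in WT cells (limma adjusted p = 1.51e-05) and by 1.94 ± 0.17 in Zn4 cells (limma adjusted p = 5.36e-06). The eIF2 kinase gene Eif2ak3 fell by 3.36 ± 0.37 (limma adjusted p = 2.45e-05) and by 3.11 ± 0.37 (limma adjusted p = 3.63e-05).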

How the data were processed

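RNA was read as single-end libraries made with a stranded mRNA kit, per the labels' protocols. The authors aligned and counted reads with TopHat2 2.0.12 and HTSeq 0.6.1 on mm10 (GRCm38), per the submitters' processing notes; the roles of these tools and whether counting used strand are not given in the sources used here. The deposited values are RPKM per gene for 12892 lines and 12885 symbols, and the first line was kept for 7 symbols listed on 2 lines. Whole reads were recovered from the deposited RPKM for 100.0% of genes (tolerance 0.02 reads).

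Log2(RPKM + 1) was fitted with limma 3.58.1 in R 4.3.3, with 1 mean per group over 12 libraries (6 residual degrees of freedom) and a mean-variance trend, and tested on simulated data. Genes below 1 RPKM in all but 1 or no library were left out, and 12726 remained. P-values were adjusted by Benjamini-Hochberg within each of 12 comparisons and called below 0.05. With no statement that replicates are separate animals, p-values measure only the spread between these libraries. Alternatives were a pseudocount of 0.1, no filter or 5 RPKM, median-ratio and quantile scaling, the replicate number as a block, a Y-linked covariate, fits of the compared libraries alone and leaving out each library; limma-voom on recovered reads and leaving out both 12 h libraries numbered 1 were chosen after seeing the data. The 38 genes, though picked by symbol, and the other lists were chosen with earlier results of these data known. Values in every library are given, by rule, for genes called between genotypes or responses (the 4 largest where more were called) and for the largest and smallest response of each role group; Atf4, Atf5, Ddit3, Cars, Nars, Mars and Hspa5 were added after their values were seen. Counting intervals are 95% exact intervals of a rate ratio and cover counting error only.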

Additional observations from a re-analysis of the deposited data

Results flagged for a closer look

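The change from rest to stimulation differed between genotypes, by the test of that difference, for 9 combinations of gene and time. On the log2(RPKM + 1) scale, as the Zn4 change minus the WT change, the values to 12 h were -0.47 for Qars, 1.5 for Asns and 2.04 for Cth. The values to 24 h were -0.61 for Qars, 1.73 for Asns, 0.74 for Atf4, 2.09 for Trib3, 1.91 for Chac1 and 3.02 for Cth. On recovered reads (limma-voom) Qars was still called at both times, and the values of Asns (-0.21 and 0.007), Chac1 (1.26), Trib3 (2.86, adjusted p = 0.0501) and Cth (4.77 and 5.09) were not. In each of these genes but Qars and Atf4 at least 1 genotype had a resting level below 3.1 RPKM.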

How the results depend on the processing

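Of the 38 genes, the number called was 11 in WT cells between 12 h and 24 h and became 6 with the Y-linked covariate, 24 with the compared libraries alone, 2 without both 12 h libraries numbered 1, and 4 to 9 without 1 library. In Zn4 cells it was 15 and became 3, 9, 4 and 6 to 18 in the same order. Between genotypes at 0 h it was 2 and became 1 with the filter at 5 RPKM, with quantile normalization, with the Y-linked covariate and with limma-voom, 0 with the compared libraries alone and 0 to 1 without 1 library. At 12 h the count of 4 became 2 without both libraries numbered 1, and at 24 h the count of 16 became 8 to 19 without 1 library. For the difference in response to 12 h, the count of 3 became 1 with limma-voom and 1 without both libraries numbered 1. To 24 h the count of 6 became 2 with limma-voom, 3 with the compared libraries alone and 2 to 10 without 1 library. Between 12 h and 24 h the count of 0 became 3 without Zn4 24 h replicate 2. The difference in response of Asns to 12 h changed sign with limma-voom (-0.21). The causes of these shifts were not tested.

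The labels give replicate numbers 1 and 2 in every group but do not say what they share. The deviations of replicate 1 correlated between genotypes by 0.61 at 0 h, 0.19 at 12 h and 0.04 at 24 h. Resting libraries of the same number thus varied together, and those at 24 h hardly did. The main fit took no pairing into account, so calls and missing calls between genotypes at 0 h ignore this sharing. The replicate block is 1 term over all 6 groups and cannot stand for sharing at 0 h alone. With a replicate block the counts of called genes were 33, 12 and 35 in WT cells (12 h against rest, 24 h against 12 h, 24 h against rest), 36, 14 and 37 in Zn4 cells, 2, 4 and 18 between genotypes at 0 h, 12 h and 24 h, and 3, 7 and 0 for the differences in response. Resting levels of Asns, Chac1, Cth and Pycr1 rest on few reads, and 2 libraries per group limit every test.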
